A study of Sus scrofa with 11 samples.

Results

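The TNF superfamily genes of day 10 pig skin wounds were taken by symbol from the deposited expression table: every gene whose symbol begins with TNFSF or TNFRSF and a number, and TNF, LTA, LTB, LTBR, FAS, FASLG, CD40, CD40LG, CD27, CD70, EDA, EDAR and EDA2R. The rule took 40 of the 30376 genes, 18 ligands and 22 receptors, without use of any measured value. The series compared full-thickness punch wounds of a diabetic and a non-diabetic female Yucatan minipig by polyA RNA sequencing, with 1 library per excised wound. The diabetic minipig was 6 months old when it was made diabetic by intravenous streptozotocin (STZ), a toxin of the insulin-producing beta cells, and was kept on supplemental insulin that was withdrawn before wounding. The non-diabetic minipig was wounded in the same way without STZ, and its age was not found in the sources used here. The 7 diabetic wounds shared 1 animal and the 4 non-diabetic wounds another, so each SD and p-value rests on how far wounds of the same animal differ, and diabetes and animal cannot be told apart.

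Ligands of this superfamily are mostly membrane proteins that act as trimers and can be shed into the tissue fluid, and their receptors cluster on the target cell when bound. Receptors with a death domain can start caspase-dependent death or NF-kappaB signalling, receptors that bind TRAF adaptor proteins mainly signal to NF-kappaB and MAP kinases, and decoy receptors bind ligand without signalling. In skin wounds TNF from macrophages and other leukocytes is an early inflammatory signal, and other members serve lymphocyte co-stimulation, lymphoid tissue organisation, bone remodelling and hair follicle development.

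Levels are given as FPKM, the reads on a gene scaled by its length and by a factor of its library. That factor kept a nearly fixed ratio, 0.995 to 1.005 of its mean, to the median ratio of gene reads between libraries. Its ratio to the total reads on genes ran from 0.854 to 1.18. Reads that fell on genes numbered 28314785 to 40168372 in the diabetic and 32961018 to 36872400 in the non-diabetic libraries. A gene of 2 kb with a single read came to 0.0112 to 0.0194 FPKM. Diabetic wound 4 and non-diabetic wound 1 stood apart from the other 9 libraries on the first principal component. These 2 libraries also held little of the keratinocyte gene KRT5, at 29.2 and 210.9 FPKM, where the other wounds held 817 to 2861 FPKM. At these depths 37 of the 40 genes had at least 1 read in some wound. The test across genes took those that reached 0.5 FPKM in 4 or more wounds, and 26 members (10 ligands and 16 receptors) met it. Another 11 members had reads below that level, and 3 receptors were listed at 0 in all 11 wounds.

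The most abundant members were receptors. By its mean over the 11 wounds the highest receptor was TNFRSF1A, the main receptor of soluble TNF, at 57.7 ± 7.12 FPKM in diabetic (SD, n = 7) and 56.2 ± 4.83 FPKM in non-diabetic wounds (SD, n = 4). TNFRSF12A, the receptor of TWEAK, followed at 64.4 ± 25.8 and 44.0 ± 2.24 FPKM, and LTBR, the lymphotoxin beta receptor, at 45.1 ± 7.85 and 34.3 ± 4.37 FPKM. The ranges of these 3 receptors over the 11 wounds overlapped, with TNFRSF8 (CD30), TNFRSF21 (death receptor 6), TNFRSF1B and CD40 next in the range of 13.6 to 57.0 FPKM. Among the ligands only TNFSF10 (TRAIL) and TNFSF12 (TWEAK) had a mean above that of CD40. TNFSF12 measured 15.2 to 31.0 FPKM in diabetic wounds with a median of 24.98 FPKM, and 26.8, 20.3, 15.2 and 17.8 FPKM in the non-diabetic wounds, within the same range. TNFSF13 (APRIL), the next ligand, measured 4.03 ± 0.940 and 3.69 ± 0.640 FPKM, and TNF itself 1.04 ± 0.840 and 0.315 ± 0.112 FPKM.

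**Figure D1:**
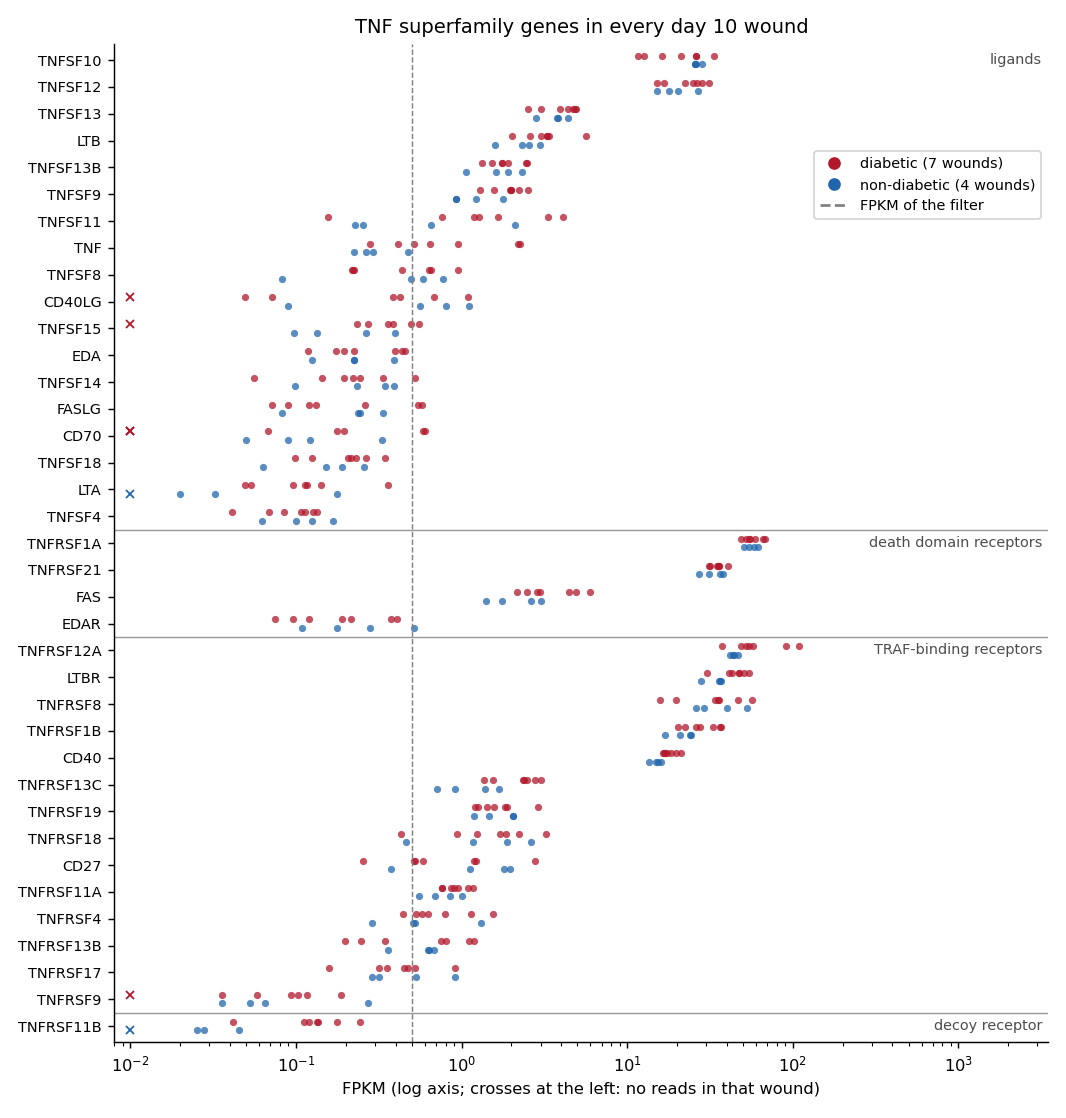
FPKM in every wound of the 37 members with any read, on a log axis, grouped by role and ordered by mean level; each point is 1 wound (red diabetic, blue non-diabetic), crosses mark wounds without a read and the dashed line the 0.5 FPKM of the filter. Receptors such as TNFRSF1A and TNFRSF12A sit near 50 FPKM, whereas most ligands lie below 5 FPKM and the groups overlap in all members shown except CD40.

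No member passed the test used here between diabetic and non-diabetic wounds. The study ran a count test on the same wounds, and the paper names TNF among its upregulated genes. TNFRSF11B and TNFRSF13C are also listed in a table of the study. By limma on log2(FPKM + 0.5), with Benjamini-Hochberg adjustment over all 13956 genes tested, a gene was called when its adjusted p was below 0.05 and its log2 fold change exceeded 0.5 in size, and 0 of the 26 tested members were called higher and 0 lower. Over all tested genes 1.35% were called higher and 1.66% lower, which together is 3.0%, or 419 genes. The paper reports more differentially expressed genes than that from its count test at the same thresholds, so a member not called here may pass there. At an unadjusted limma p under 0.05, 6 of 26 members (23.1%) were higher in diabetic wounds and 0 lower, against 9.01% higher and 9.39% lower of all genes. These 6 were TNFRSF13C, TNFSF9, CD40, LTBR, FAS and TNFRSF1B. Under alternative processing, given in a later section, 1 to 7 members had such a p. An exact permutation test of single genes, described with TNF, gave a p under 0.05 for 4 of 26 members (15.4%), all higher, against 8.68% higher and 9.42% lower of all genes. The log2 fold change was above 0 for 20 of 26 members (76.9%), 7 ligands and 13 receptors, against 52.3% of all genes. Its median was 0.14 over the members and 0.01 over all tested genes, and 0.17 and 0.13 for ligands and receptors. Wounds of the same group differed more in these genes than in most: the median SD of the log2 values was 0.385 over diabetic and 0.316 over non-diabetic wounds, against 0.256 and 0.208 over all tested genes. The 95% intervals of the members' fold changes were 0.389 to 2.26 wide on the log2(FPKM + 0.5) scale. Of the 26 intervals 6 lay wholly above 0, and 19 stayed within 1 either way, while the other 7 held a change of 2-fold. Because 0.5 FPKM was added, 1 on this scale is more than 2-fold in FPKM for low genes. The intervals of low members among the 19 may therefore also hold a 2-fold change. Since the tissue was sequenced in bulk, fewer cells of a type and less RNA per cell cannot be told apart in any of these values.

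**Figure D2:**
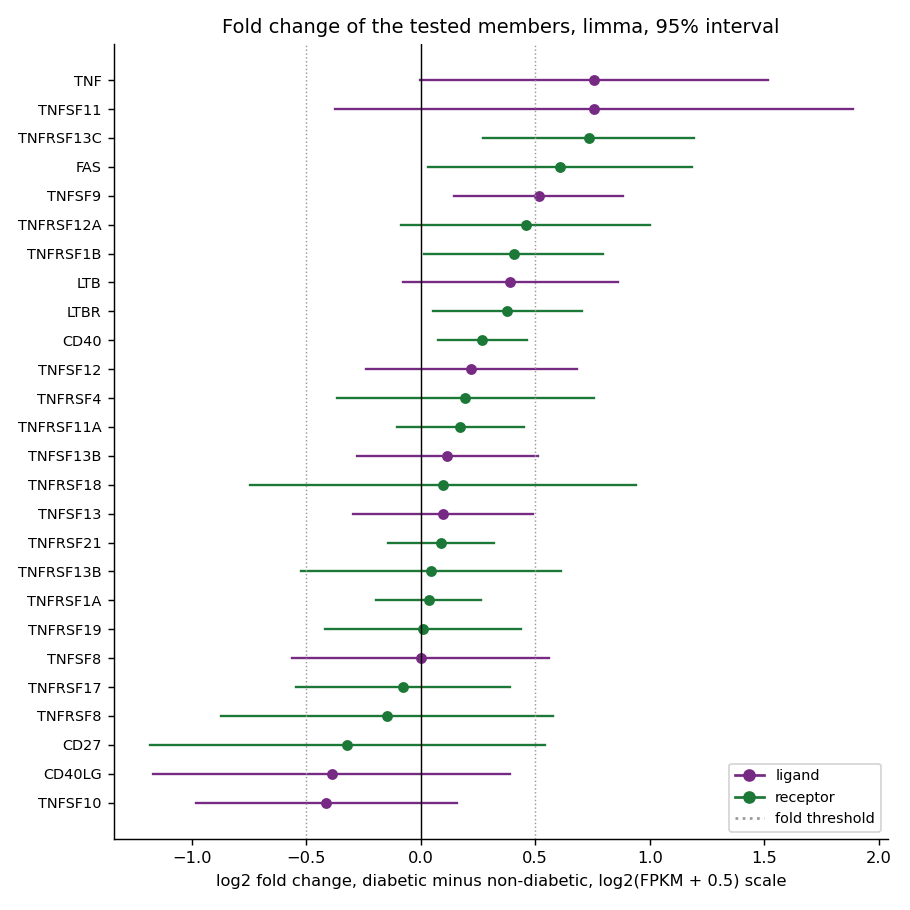
Log2 fold change (diabetic minus non-diabetic, on the log2(FPKM + 0.5) scale) of the 26 tested members with the 95% interval of limma, ordered by size; purple marks ligands, green receptors, and dotted lines the fold threshold. The intervals of TNFRSF13C, FAS, TNFSF9, TNFRSF1B, LTBR and CD40 lie above 0, and no interval lies below 0.

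TNF, the founding cytokine of the family, ranged from 0.280 to 2.25 FPKM in diabetic wounds with a median of 0.643 FPKM, on 12 to 134 reads. The non-diabetic wounds 1 to 4 held 0.294, 0.264, 0.224 and 0.478 FPKM, on 13 to 31 reads. Diabetic wounds 1 and 5, at 2.25 and 2.205 FPKM, held more than 2 times the next highest wound, while diabetic wounds 6 and 7 lay within the non-diabetic range. The log2 fold change was 0.76 with a standard error of 0.35 (limma, 95% interval -0.0046 to 1.52, adjusted p = 0.275), while permuting the wounds exactly (two-sided, 330 ways to choose 7 of them) gave p = 0.0697. TNF reached the filter of 0.5 FPKM in 5 diabetic and 0 non-diabetic wounds, so it entered the test only through the group where it was higher, and it counts among the 20 members above 0 without being support for them. On the recovered reads (voom) it was 1.41 (adjusted p = 0.308), and the ratio of the mean FPKM was 3.29. Without diabetic wounds 1 and 5, an alternative chosen after the values were seen, it was 0.36 (limma, adjusted p = 0.358). TNFRSF1A, which carries the death domain, ranged from 48.6 to 68.0 FPKM in diabetic wounds with a median of 55.3 FPKM and measured 61.8, 58.1, 54.1 and 50.7 FPKM in the non-diabetic wounds. The groups overlapped over nearly their whole range, with a log2 fold change of 0.03 (limma, 95% interval -0.20 to 0.26, adjusted p = 0.904). TNFRSF1B, the TRAF-binding TNF receptor of leukocytes and endothelium, ranged from 20.3 to 37.0 FPKM with a median of 27.6 FPKM in diabetic wounds and measured 24.1, 20.7, 17.0 and 24.0 FPKM in non-diabetic wounds. Here 5 diabetic wounds lay above every non-diabetic wound and 2 among them, and the log2 fold change was 0.41 (limma, 95% interval 0.02 to 0.80, adjusted p = 0.251). LTA, which shares both receptors with TNF, had 0 to 18 reads per wound, and its highest value was 0.359 FPKM in diabetic wound 4.

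Diabetic wounds 1 and 5 also stood out in other members. They held the 2 highest values of 3 of the 26 tested members (11.5%), TNF, TNFSF11 and TNFRSF12A, against 4.74% of all tested genes, a pattern singled out after the values were seen, in which TNF had passed the filter through diabetic wounds alone. TNFSF11 (RANKL), the cytokine that drives osteoclast formation and is also made by activated T cells and keratinocytes, ranged from 0.155 to 4.11 FPKM in diabetic wounds with a median of 1.28 FPKM. Wounds 5 and 1 held its highest values, 4.11 and 3.32 FPKM, and the non-diabetic wounds held 0.254, 0.228, 0.652 and 2.11 FPKM. Its highest wound was 26.5 times its lowest, the widest range among the tested members without a 0. The groups overlapped in part (log2 fold change 0.76, limma, 95% interval -0.38 to 1.89, adjusted p = 0.483). TNFRSF12A ranged from 37.6 to 109.6 FPKM in diabetic wounds with a median of 54.7 FPKM, and the non-diabetic wounds lay together at 41.6, 44.0, 43.3 and 47.0 FPKM. Diabetic wounds 5 and 1 were far above the rest at 109.6 and 90.8 FPKM, and diabetic wound 2 was the lowest of all 11 wounds. TNFRSF12A had a log2 fold change of 0.46 (limma, 95% interval -0.08 to 1.00, adjusted p = 0.360), and 0.17 without diabetic wounds 1 and 5 (adjusted p = 0.494). Its ligand TNFSF12 did not share the pattern, with its lowest diabetic value, 15.2 FPKM, in wound 1 and 28.1 FPKM in wound 5.

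**Figure D3:**
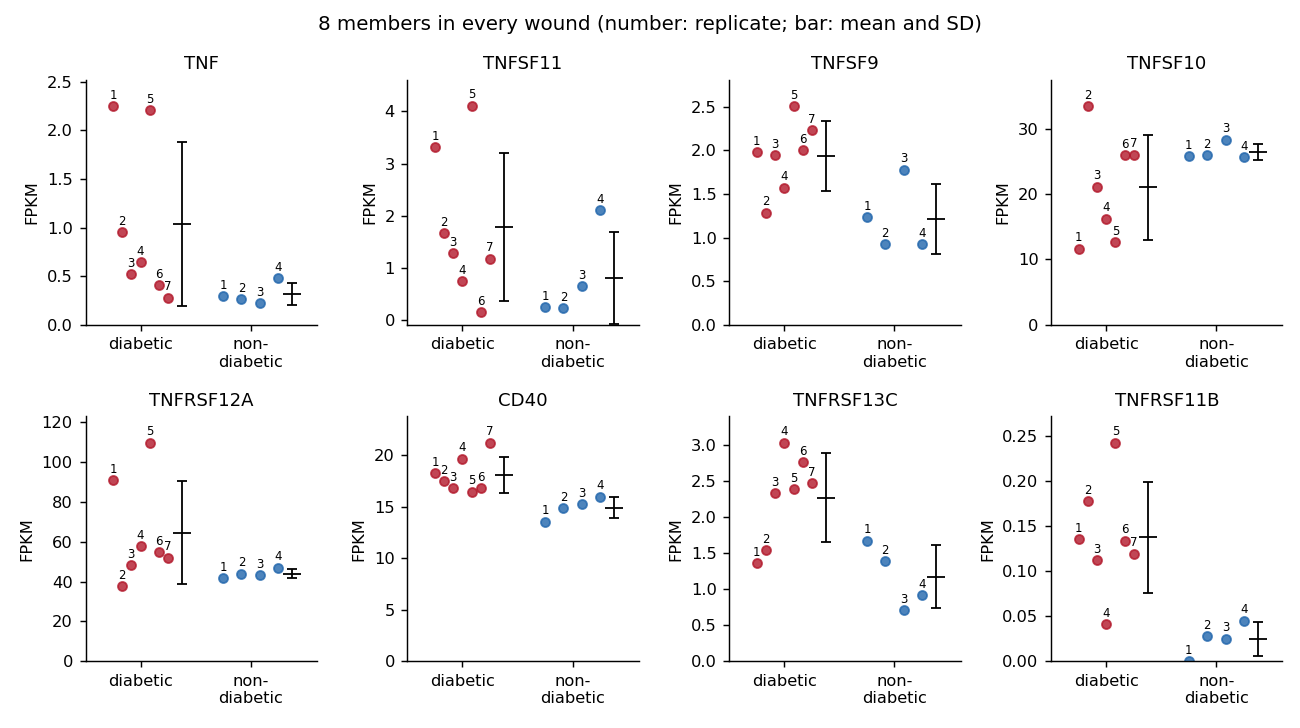
FPKM of 8 members in every wound, with the replicate number at each point and the mean with its SD as a bar (7 diabetic and 4 non-diabetic wounds). TNF, TNFSF11 and TNFRSF12A are highest in diabetic wounds 1 and 5, TNFSF10 is low in the same 2 wounds, and CD40 is the only one of the 8 whose groups do not overlap.

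Of 22 genes known to be induced by TNF, a list written from general knowledge, 20 were tested. Of these, 0 were called in either direction, 13 had a log2 fold change above 0 and the median was 0.14, with 1 at an unadjusted p under 0.05 (limma). This was VCAM1, an endothelial adhesion molecule, at 51.3 ± 6.23 FPKM against 37.8 ± 4.17 FPKM, diabetic first, without overlap, a log2 fold change of 0.43 that missed the fold threshold (limma, adjusted p = 0.0482). Over all tested genes 2.69% separated the groups with the diabetic wounds higher, and 9.01% were higher at an unadjusted p under 0.05. CCL2, a monocyte chemokine and the most abundant of the list, measured 71.8 ± 21.8 and 74.1 ± 50.7 FPKM. In 12 of the 20 genes (60.0%) the 2 highest values lay in diabetic wounds 1 and 5, against 4.74% of all tested genes. These 2 wounds had been singled out after the values were seen, so the share is a description and no test. The neutrophil chemokine CXCL8 measured 90.6 and 88.6 FPKM there, against 1.51 to 4.79 FPKM in the other 5 diabetic wounds and 1.81 to 18.6 FPKM in non-diabetic wounds. IL1B, an inflammasome-processed cytokine, measured 12.3 and 17.3 FPKM, against 0.320 to 0.950 and 0.499 to 3.49 FPKM. The prostaglandin synthase gene PTGS2 measured 45.3 and 31.5 FPKM, against 0.390 to 8.37 and 1.43 to 3.51 FPKM. Non-diabetic wound 3 held the third highest value of CXCL8, CCL20 and IL6, and its TNF value, 0.224 FPKM, was the lowest of all 11 wounds. The pattern was not limited to this list. Of 39 tested genes that signal downstream of the receptors, 6 (15.4%) had their 2 highest values in diabetic wounds 1 and 5. These were TRAF4, FADD, NFKB1, NFKB2, NFKBIA and NFKBIB. Of the marker genes tested, none for keratinocytes, macrophages, T cells or B cells had its 2 highest values in diabetic wounds 1 and 5, and of 5 neutrophil markers 1 did, CXCR2.

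**Figure D4:**
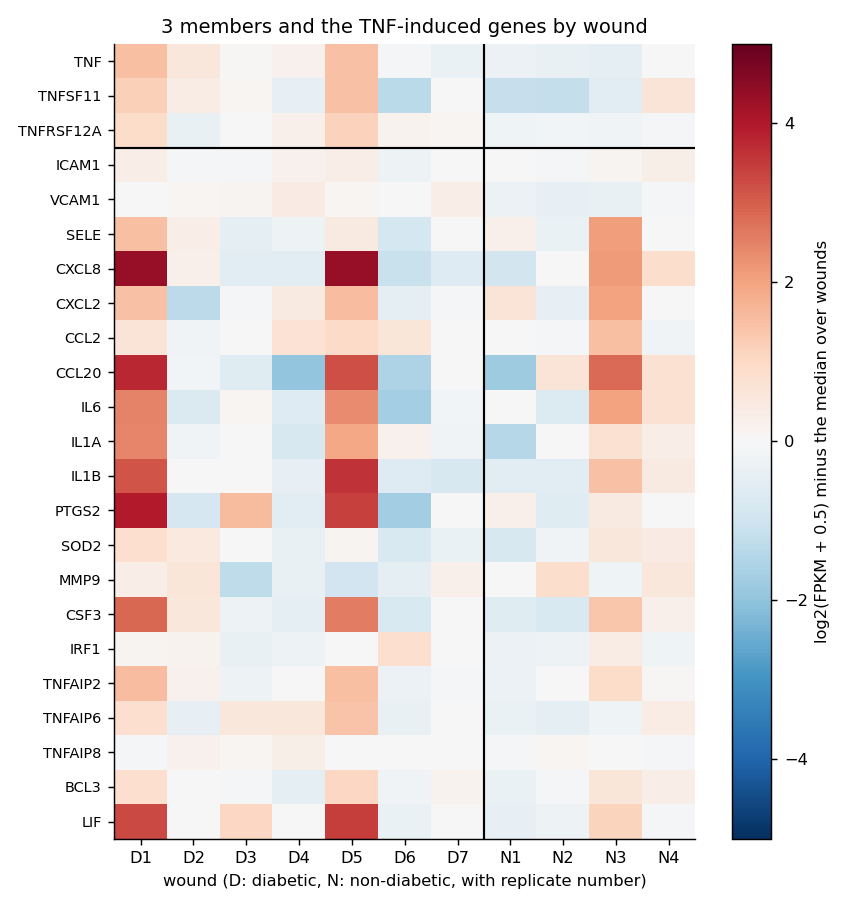
TNF, TNFSF11 and TNFRSF12A (top 3 lines) and the 20 tested TNF-induced genes in each wound, as log2(FPKM + 0.5) minus the gene's median over the 11 wounds; the vertical line separates 7 diabetic (D) from 4 non-diabetic (N) wounds. The columns of diabetic wounds 1 and 5 are red for most genes, with CXCL8 near 90 FPKM in both, and non-diabetic wound 3 is red for several of them.

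CD40, through which antigen-presenting cells receive T cell help, was the member whose groups separated. Diabetic wounds ranged from 16.5 to 21.2 FPKM with a median of 17.5 FPKM, and the non-diabetic wounds measured 13.6, 14.8, 15.3 and 15.99 FPKM. Every diabetic wound lay above every non-diabetic wound, by a gap of less than 1 FPKM, and this held for 1 of 26 tested members (3.85%) against 5.65% of all tested genes, 2.69% with the diabetic wounds on the higher side. The means were 18.1 ± 1.76 and 14.9 ± 1.02 FPKM, a ratio of 1.21, and the log2 fold change was 0.27 with a standard error of 0.089 (limma, 95% interval 0.07 to 0.46, adjusted p = 0.128). The exact permutation test gave p = 0.00606, where the smallest p it can give is 0.00303. Its ligand CD40LG, a product of activated T helper cells, lay near the limit of detection with 0 to 34 reads per wound. It ranged from 0 to 1.09 FPKM in diabetic wounds with a median of 0.387 FPKM and measured 0.0889, 0.560, 0.804 and 1.11 FPKM in non-diabetic wounds. The groups overlapped over nearly their whole range (log2 fold change -0.39, limma, 95% interval -1.17 to 0.39, adjusted p = 0.618).

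The 250 bases before the annotated start of CD40 and of TNF are shown because these are the member that separated the groups and the founding ligand, and both genes are textbook targets of NF-kappaB. Both were read 5' to 3' from the RefSeq genome of build Sscrofa11.1, on the plus strand, which is the strand of both genes, at chr17:48285866-48286115 for CD40 and chr7:23699385-23699634 for TNF. Capitals mark the match to the kappaB consensus, searched on both strands with overlaps counted.
CD40: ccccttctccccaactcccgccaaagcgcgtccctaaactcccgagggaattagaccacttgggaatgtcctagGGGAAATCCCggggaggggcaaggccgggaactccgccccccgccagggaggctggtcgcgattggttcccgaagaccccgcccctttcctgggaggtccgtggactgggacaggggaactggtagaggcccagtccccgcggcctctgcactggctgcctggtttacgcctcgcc
TNF: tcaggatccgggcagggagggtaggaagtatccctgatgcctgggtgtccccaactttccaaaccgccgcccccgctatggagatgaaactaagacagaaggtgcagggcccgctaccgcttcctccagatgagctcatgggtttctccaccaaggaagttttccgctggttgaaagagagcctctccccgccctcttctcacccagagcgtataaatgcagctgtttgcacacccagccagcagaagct
The CD40 window held the consensus at a single place, GGGAAATCCC, which begins 176 bases before the start and matches the degenerate consensus on both strands, and the TNF window held none in these letters. The consensus was present in 7 of the 40 member windows (17.5%), those of CD40, CD70, LTA, TNFSF13, TNFRSF4, TNFRSF18 and TNFRSF6B, and in 13.8% of 20664 windows of the same length before protein coding genes. A match is a description of sequence, and no binding was measured in these wounds.

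TNFRSF13C, the receptor through which the survival factor BAFF keeps B cells alive, had the smallest adjusted p of the members. Diabetic wounds ranged from 1.36 to 3.03 FPKM with a median of 2.39 FPKM, and the non-diabetic wounds measured 1.67, 1.39, 0.709 and 0.918 FPKM. Non-diabetic wound 1 lay above diabetic wounds 1 and 2, and the other 5 diabetic wounds lay above every non-diabetic wound. The means were 2.27 ± 0.610 and 1.17 ± 0.439 FPKM, a ratio of 1.94, with a log2 fold change of 0.73 and a standard error of 0.21 (limma, 95% interval 0.27 to 1.196, adjusted p = 0.0864) and p = 0.0242 by the exact permutation test. With each wound left out in turn it was 0.59 to 0.87 (limma, adjusted p = 0.0427 to 0.255), and it was called only without diabetic wound 1, with the highest adjusted p without non-diabetic wound 3. Of 9 marker genes of B and plasma cells, all with reads, 6 were tested and 4 called higher, CD79A, CD79B, IRF4 and POU2AF1. Non-diabetic wound 1 held the highest TNFRSF13C of its group, with the highest CD22, 1.87 FPKM, and the lowest IRF4, 0.348 FPKM, of these markers. Of the 4 called genes CD79B, at 0.504 to 2.26 FPKM in diabetic and at most 0.413 FPKM in non-diabetic wounds, passed the filter only through the group where it was higher, so its call is no support. The summed level of the list was 44.9 to 95.1 FPKM in diabetic and 14.7 to 75.5 FPKM in non-diabetic wounds. Most of that sum was JCHAIN, at 36.4 to 79.9 FPKM in diabetic and 10.9 to 70.8 FPKM in non-diabetic wounds, which was not called (limma, adjusted p = 0.27). The part of B and plasma cells in the TNFRSF13C value was not tested. The defining B cell gene MS4A1 (CD20) was at 0.0160 to 0.800 FPKM in diabetic and 0 to 0.205 FPKM in non-diabetic wounds, below the filter.

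The other members of the BAFF and APRIL system had intervals that spanned 0. TNFSF13B (BAFF), made by myeloid and stromal cells, ranged from 1.32 to 2.48 FPKM in diabetic wounds with a median of 1.77 FPKM and measured 1.07, 1.604, 2.32 and 1.89 FPKM in non-diabetic wounds. TNFSF13 (APRIL) ranged from 2.504 to 4.88 FPKM with a median of 4.37 FPKM and measured 4.37, 3.80, 2.82 and 3.76 FPKM. In both the non-diabetic values spread over most of the diabetic range, with log2 fold changes of 0.12 (95% interval -0.28 to 0.51) and 0.10 (95% interval -0.30 to 0.49) by limma. TNFRSF13B (TACI) of activated B cells and TNFRSF17 (BCMA) of plasma cells were lower, at 0.158 to 1.18 FPKM over all wounds. Their log2 fold changes were 0.04 and -0.08 (limma, adjusted p = 0.952 and 0.893). The long non-coding RNA gene LOC100739121 lies over TNFRSF17 on the opposite strand, at a mean of 0.914 FPKM beside 0.475 FPKM for TNFRSF17. Whether the counting used strand is not given in the sources used here, so some TNFRSF17 reads may belong to that gene.

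TNFSF9 (4-1BB ligand), a co-stimulatory ligand of antigen-presenting cells, ranged from 1.29 to 2.51 FPKM in diabetic wounds with a median of 1.98 FPKM, and measured 1.23, 0.924, 1.78 and 0.926 FPKM in non-diabetic wounds. Non-diabetic wound 3 lay within the diabetic range and the other 3 below it. TNFSF9 had a log2 fold change of 0.51 with a standard error of 0.17 (limma, 95% interval 0.14 to 0.88, adjusted p = 0.126), and the exact permutation test gave p = 0.0212. Its receptor TNFRSF9 (4-1BB), of activated T and NK cells, had 0 to 28 reads per wound. It lay at 0 to 0.187 FPKM in diabetic wounds with a median of 0.0928 FPKM and at 0.0530, 0.0358, 0.0654 and 0.272 FPKM in non-diabetic wounds, with overlap in all but the last (exact permutation p = 0.736). Of 8 macrophage markers tested, 3 were called higher in the diabetic wounds, CD14, MARCO and ITGAM, with a summed level of the list of 249 to 407 against 151 to 274 FPKM, and of the T and NK cell markers 0 of 7 tested were called, with sums of 33.0 to 58.5 against 30.9 to 36.9 FPKM. The part of these cells in the levels of TNFSF9, CD40 or TNF was not tested.

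LTBR, which directs the organisation of lymphoid tissue and signals to the alternative NF-kappaB pathway, ranged from 30.5 to 54.8 FPKM in diabetic wounds with a median of 47.4 FPKM. The non-diabetic wounds measured 36.6, 35.9, 27.8 and 36.9 FPKM. All diabetic wounds but wound 2 lay above every non-diabetic wound. The log2 fold change was 0.38 with a standard error of 0.15 (limma, 95% interval 0.05 to 0.70, adjusted p = 0.199), with p = 0.0485 by the exact permutation test. LTB, the membrane partner of lymphotoxin alpha in the ligand of LTBR, ranged from 2.02 to 5.62 FPKM with a median of 3.28 FPKM against 2.56, 2.33, 1.59 and 2.97 FPKM, and the groups overlapped (log2 fold change 0.39, limma, 95% interval -0.08 to 0.86, adjusted p = 0.367). The gene LST1 lies over LTB on the opposite strand, and whether the counting used strand is not given in the sources used here. TNFSF14 (LIGHT), the other ligand of LTBR, had 7 to 47 reads per wound. Its 0.0554 to 0.524 FPKM in diabetic wounds, with a median of 0.220 FPKM, spanned the 0.0989, 0.345, 0.234 and 0.390 FPKM of the non-diabetic wounds (exact permutation p = 0.785).

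TNFRSF11B, the decoy receptor osteoprotegerin that captures RANKL and TRAIL, lay below the filter and showed the largest ratio of means among the members with reads. The diabetic wounds held 3 to 18 reads, 0.0416 to 0.242 FPKM with a median of 0.134 FPKM, and the non-diabetic wounds held 0, 2, 2 and 4 reads, or 0, 0.0277, 0.0253 and 0.0452 FPKM. Only diabetic wound 4, with 3 reads, fell within the non-diabetic range. The means were 0.138 ± 0.0616 and 0.0245 ± 0.0186 FPKM, a ratio of 5.603 that rests on 75 reads in all diabetic and 8 in all non-diabetic wounds, and the exact permutation test gave p = 0.00909. When genes below the filter entered the fit, the adjusted p was 0.0756 on the log2 values and 0.0938 on recovered reads (limma and voom), so the difference passed the test for a single gene and not the test over all genes. COLEC10 overlaps it on the opposite strand at a mean of 0.0125 FPKM. RANK, the signalling receptor of RANKL encoded by TNFRSF11A, ranged from 0.763 to 1.17 FPKM over diabetic wounds and measured 0.690, 0.855, 0.552 and 1.00 FPKM in the others (log2 fold change 0.17, limma, adjusted p = 0.519). Of 6 osteoclast and giant cell markers 3 were tested and 0 called, and their summed level was 145 to 262 FPKM in diabetic and 207 to 429 FPKM in non-diabetic wounds.

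TNFSF10 (TRAIL), a ligand of death receptors that interferons induce, was lower on average in diabetic wounds without passing the test. The diabetic wounds ranged from 11.6 to 33.5 FPKM with a median of 21.2 FPKM, whereas the non-diabetic wounds lay together at 25.8, 26.0, 28.3 and 25.7 FPKM. Diabetic wounds 1 and 5 were lowest at 11.6 and 12.6 FPKM, and wound 2 exceeded every non-diabetic wound. The log2 fold change was -0.41 with a standard error of 0.26 (limma, 95% interval -0.98 to 0.16, adjusted p = 0.441), and -0.14 without diabetic wounds 1 and 5. FAS, the death receptor of Fas ligand, ranged from 2.16 to 5.94 FPKM in diabetic wounds with a median of 2.99 FPKM and measured 1.41, 1.75, 3.02 and 2.61 FPKM in non-diabetic wounds, with overlap in 4 diabetic wounds (log2 fold change 0.61, limma, 95% interval 0.03 to 1.18, adjusted p = 0.244). FASLG, of cytotoxic lymphocytes, had 2 to 22 reads per wound. TNFRSF21, a death domain receptor of epithelium and neurons, was among the steadiest members, at 31.2 to 40.6 FPKM in diabetic and 27.1 to 38.01 FPKM in non-diabetic wounds.

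TNFRSF8 (CD30), an activation receptor of lymphocytes, was the one member highest in the 2 libraries that stood apart, at 57.0 FPKM in diabetic wound 4 and 53.0 FPKM in non-diabetic wound 1, as they were in 5.65% of all tested genes. The remaining wounds held 15.7 to 46.5 FPKM, and the log2 fold change was -0.15 (limma, 95% interval -0.87 to 0.58, adjusted p = 0.861). Its ligand TNFSF8 ranged from 0.217 to 0.957 FPKM in diabetic wounds with a median of 0.434 FPKM, and the non-diabetic wounds held 0.498, 0.582, 0.0819 and 0.768 FPKM. The highest TNFSF8 wound was 11.7 times the lowest, and the log2 fold change was -0.0007 (limma, 95% interval -0.56 to 0.56). The T cell co-stimulators CD27, TNFRSF4 (OX40) and TNFRSF18 (GITR) lay between 0.254 and 3.22 FPKM, with log2 fold changes of -0.32, 0.19 and 0.10 and intervals that all spanned 0. TNFRSF19 (TROY), of hair follicle and neural progenitors, lay between 1.18 and 2.90 FPKM with a log2 fold change of 0.01 (limma, 95% interval -0.42 to 0.44).

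Members below the filter included the ectodysplasin pair of hair follicle and gland development, EDA at 0.119 to 0.453 FPKM and its receptor EDAR at 0.0751 to 0.519 FPKM over all wounds, and the co-stimulatory ligands TNFSF4, TNFSF18, TNFSF15 and CD70, none above 0.605 FPKM in any wound. None of the 10 other than TNFRSF11B had an exact permutation p under 0.05, and their p-values lay between 0.218 and 0.833. The receptors TNFRSF25, TNFRSF6B and EDA2R were listed at 0 in every wound. All 2256 exon bases of TNFRSF25 are shared with exons of PLEKHG5 on the same strand, and all 1926 of TNFRSF6B with exons of RTEL1 or ARFRP1, 53.7% of them on the same strand. PLEKHG5, RTEL1 and ARFRP1 averaged 7.59, 4.46 and 10.9 FPKM over the 11 wounds. How reads on shared exons were counted is not given in the sources used here, so a value of 0 for these 2 receptors does not show that they were silent. EDA2R, the third, shares no exon base with another gene.

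Downstream of the receptors, 41 of 43 listed genes for adaptors, caspases, kinases and NF-kappaB subunits were in the table and 39 were tested. Of these, 0 were called, 22 had a log2 fold change above 0, and the median was 0.02, beside 0.01 over all tested genes. At an unadjusted p under 0.05 (limma), TRAF2, FADD, RIPK1, RIPK3 and NFKBIE were higher in diabetic wounds, as were 9.01% of all tested genes. RIPK3, the kinase of necroptosis, measured 19.5 ± 1.84 against 15.6 ± 0.386 FPKM, diabetic first, without overlap (log2 fold change 0.31, limma, adjusted p = 0.0711). RIPK1, its partner at TNF receptor 1, also separated the groups at 22.4 ± 2.22 and 18.4 ± 0.907 FPKM (log2 fold change 0.28, limma, adjusted p = 0.113). Over all tested genes 2.69% separated the groups with the diabetic wounds higher. The most abundant gene of the list was NFKBIA, the inhibitor of NF-kappaB signalling, at 75.2 ± 28.3 and 63.3 ± 29.7 FPKM. Of 7 genes for shedding and processing none was called, with a median log2 fold change of 0.20, and FURIN, a protease that cleaves several ligands, measured 43.3 ± 9.73 and 32.5 ± 3.19 FPKM (log2 fold change 0.39, limma, adjusted p = 0.207). ADAM17, the sheddase of TNF, measured 10.1 to 14.7 FPKM in diabetic and 10.99 to 14.2 FPKM in non-diabetic wounds. NGFR, the neurotrophin receptor of the superfamily that the rule on symbols left out, was at 4.35 ± 0.961 and 2.16 ± 0.918 FPKM without overlap (log2 fold change 0.92, limma, adjusted p = 0.0540), and RELT, another such receptor, had a log2 fold change of -0.04.

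**Figure D5:**
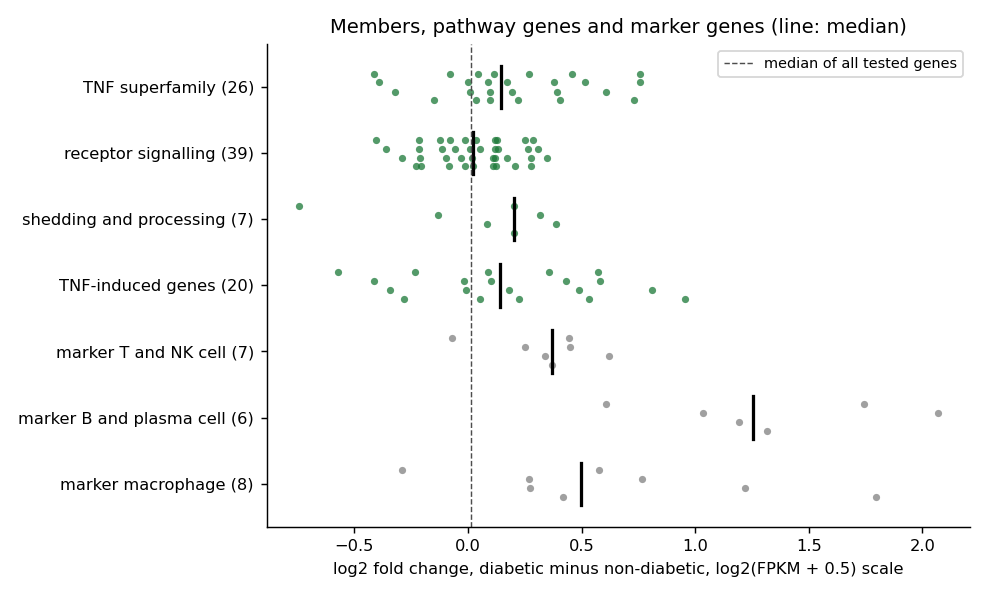
Log2 fold changes (log2(FPKM + 0.5) scale) of the 26 tested members, of 3 pathway lists and of 3 marker lists, with the number of genes tested in brackets; each point is a gene, the short line the median, and the dashed line the median of all tested genes (0.01). The members and pathway lists sit close to 0, with medians of 0.02 to 0.20, and the B and plasma cell markers, CD79B among them, sit highest at 1.25.

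Of the other marker lists, LEP was called lower among 4 adipocyte genes tested, having passed the filter only through the non-diabetic wounds (0.579 to 2.36 FPKM, against at most 0.406 FPKM), and 0 were called among neutrophil, dendritic cell, keratinocyte, fibroblast, endothelial and mast cell genes. The summed keratinocyte level ran from 35.7 to 6310 FPKM in diabetic and from 255 to 2477 FPKM in non-diabetic wounds. Skeletal muscle genes were not tested in any case and reached a sum of 1344 FPKM in 1 diabetic wound. Many members lie next to each other in the genome (Sscrofa11.1), with 19 of the 40 within 200 kb of another. LTA, TNF and LTB follow each other on chromosome 7 between positions 23696387 and 23707036, with 1354 bases between LTA and TNF. TNFSF12 and TNFSF13 are 317 bases apart on chromosome 12, and TNFRSF8 and TNFRSF1B 20537 bases apart on chromosome 6. Near neighbours could differ widely in level, as CD27 at 0.254 to 2.78 FPKM and LTBR at 27.8 to 54.8 FPKM, which lie 69135 bases apart on chromosome 5.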

How the data were processed

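Libraries of polyA RNA with dUTP strand marking were made from 11 wounds. Per the labels, the authors' tools were fastp, HISAT2 2.2.1 (build Sscrofa11.1), StringTie 2.2.3 and featureCounts 2.0.6. The authors deposited FPKM values, whose formula is not given in the sources used here. Multiplied by gene length, 100.0% of values were whole reads within 0.05 reads, and depth was 28314785 to 40168372 reads on genes. The study's count test was replaced by limma on log2(FPKM + 0.5), which understates the change of low genes, with a voom fit on recovered reads as an alternative, which called 151 genes higher and 256 lower, beside 188 and 231.

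Genes that reached 0.5 FPKM in 4 or more libraries were fitted (lmFit, eBayes with trend) and adjusted by Benjamini-Hochberg over 13956 genes. For single genes, mean log2 values were permuted exactly over 330 splits (two-sided). The members, lists and tests were chosen with earlier results of these data known. Values in every wound are given for members with an exact p under 0.05, TNF, TNFRSF11B and TNFRSF13C (in a table of the study), partners of these, the 3 highest ligands and receptors and the 3 widest ranges. FAS was added after its values were seen, as were LOC102158193, LOC100627067 and their neighbours in the family. All 40 identifiers matched the RefSeq annotation of Sscrofa11.1, from which the promoter windows were read, and 26 symbols of the table that had become dates were repaired. Alternatives changed the pseudocount, filter, scaling, spread estimate, library weights, replicate block, first letter of the library name (L or R), wounds included and unit. The result of 1 gene of the receptor signalling list is not reported here. The fit was tested on simulated data. Fits were run in R 4.3.3 (limma 3.58.1), and the rest in Python 3.11.15 with SciPy 1.17.1, pandas 2.3.3, numpy 2.4.6, pysam 0.24.0 and matplotlib 3.10.9.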

Additional observations from a re-analysis of the deposited data

Results flagged for a closer look

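In 7 of 74 groups of wounds, a member's highest or lowest wound lay farther from its nearest neighbour than Dixon's 95% limit allows. For normally distributed values chance gives about 1 in 20. The limit was applied to FPKM values, some on few reads, for which that share need not hold. In non-diabetic wound 3, LTBR was 27.8 FPKM against 35.9 to 36.9 FPKM in the other 3, and TNFSF10 was 28.3 FPKM against 25.7 to 26.0 FPKM. Non-diabetic wound 4 held TNFRSF9 at 0.272 FPKM on 28 reads, against 0.0358 to 0.0654 FPKM. Diabetic wound 2 held the highest LTB, 5.62 FPKM against 2.02 to 3.38 FPKM, and the highest CD27, 2.78 FPKM against 0.254 to 1.22 FPKM. Diabetic wound 6 held TNFRSF19 at 2.90 FPKM against 1.204 to 1.89 FPKM, and diabetic wound 4 held LTA at 0.359 FPKM on 18 reads, against 0.0492 to 0.142 FPKM.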

How the results depend on the processing

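Over 26 alternatives, 24 of the 26 tested members never passed the threshold, and 16 kept their sign in every alternative. Members called higher numbered 1 with scaling to total reads (TNFRSF13C, 0.73, limma, adjusted p = 0.0354), 2 with library weights (TNFRSF13C, 0.88, adjusted p = 0.00893, and TNFSF9, 0.61, adjusted p = 0.0332) and 0 to 1 when 1 wound was left out. Genes called higher and lower were 406 and 416 with library weights, 112 and 100 without diabetic wound 4 and non-diabetic wound 1, and 110 to 236 and 99 to 246 with each wound left out. A fit with the replicate number as a block left 11 higher and 5 lower calls over all genes, and 1 member with an unadjusted p under 0.05. Such members numbered 6 of 26 in the main fit and 4 of 25 with scaling to total reads. They numbered 3 of 26 with quantile normalization, without diabetic wound 4 and non-diabetic wound 1, or without diabetic wounds 1 and 5. With 1 wound left out the count was 4 to 7. The labels' numbers do not pair the wounds: deviations of same-numbered wounds correlated at -0.267, 0.215, 0.0678 and -0.483. In the pathway lists 1 gene was called higher with a pseudocount of 1, quantile normalization or library weights, and 0 to 1 when a wound was left out. The last were NGFR (without diabetic wound 1 or 4) and VCAM1 (0.50, limma, adjusted p = 0.0498, without non-diabetic wound 4).

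Members near 0 changed sign. Library weights gave log2 fold changes of 0.1215 for TNFRSF8, -0.0111 for TNFRSF19, -0.3071 for TNFRSF18 and -0.05 for TNFSF13B, and quantile normalization -0.0175 for TNFRSF21, -0.0768 for TNFRSF1A and 0.0064 for TNFSF8. The block gave -0.048 for TNFRSF19, 0.0283 for TNFSF8, -0.007 for TNFRSF18, -0.0226 for TNFRSF1A and -0.0739 for TNFSF13. TNFSF8 was 0.0479 with a pseudocount of 0.1, 0.0205 with scaling to total reads and 0.0196 with the first letter of the library name. Recovered reads (voom) gave -0.0036 for TNFRSF19, 0.1481 for TNFSF8 and -0.0158 for TNFRSF13B, or -0.0017, 0.1441 and -0.0147 with the lower filter. Without diabetic wound 4 and non-diabetic wound 1, TNFRSF19 was -0.0563, TNFSF8 0.0893, TNFRSF18 -0.1422 and TNFSF13B -0.0457. Without diabetic wounds 1 and 5, TNFRSF8 was 0.0219, TNFRSF18 -0.1149, TNFRSF1A -0.0048 and TNFRSF17 0.0184. With wounds left out the ranges were -0.2948 to 0.04 for TNFRSF8, -0.1077 to 0.0929 for TNFRSF19, -0.0041 to 0.1564 for TNFRSF21, -0.2338 to 0.1408 for TNFSF8, -0.2209 to 0.3478 for TNFRSF18, -0.014 to 0.0807 for TNFRSF1A, -0.0596 to 0.1542 for TNFRSF13B, -0.0106 to 0.1898 for TNFSF13, -0.1826 to 0.0954 for TNFRSF17, -0.0414 to 0.2403 for TNFSF13B, -0.0975 to 0.0784 for TNFRSF9 and -0.2426 to 0.0285 for TNFSF14. The cause of these changes was not tested. Scaling moved the median of all genes by 0.0031 or -0.0298. Depth limits the 11 members below the filter, of which TNFRSF11B had an exact permutation p of 0.00476 to 0.0333 with wounds left out.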

Other observations

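Some genes that the annotation describes as receptors of this superfamily carry LOC symbols, so the rule on symbols did not take them, and they were looked up after the values were seen. LOC102158193, described as TNFRSF6-like (FAS itself is member 6), lies on chromosome 2 at 2186250 to 2198845 on the minus strand. It measured 3.64 to 7.34 FPKM in diabetic wounds and 13.3, 10.7, 9.26 and 9.91 FPKM in non-diabetic wounds 1 to 4. The highest diabetic wound lay under the lowest non-diabetic one, with means of 5.68 ± 1.23 (SD, n = 7) and 10.8 ± 1.75 FPKM (SD, n = 4). Over all tested genes 2.96% separated the groups with the diabetic wounds lower, and 1.66% were called lower. LOC102158193 was called lower, with a log2 fold change of -0.88 and a standard error of 0.17 (limma, adjusted p = 0.0153), and the exact permutation p was 0.00303, the smallest that test can give. It stayed past the threshold in 23 of 26 alternatives, with an adjusted p between 0.00231 and 0.275. FAS itself had a log2 fold change of 0.61 and was not called.

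LOC100627067, described as TNFRSF26-like, is a near neighbour of it on the same strand at 2163609 to 2177107. It measured 0.894 to 1.47 FPKM in diabetic and 2.79, 1.73, 1.81 and 1.69 FPKM in non-diabetic wounds, again without overlap. Its log2 fold change was -0.54 (limma, adjusted p = 0.0498), and it stayed past the threshold in 4 of 26 alternatives. The genes LOC100624226 and LOC100737977, described as like TRAIL receptors TNFRSF10A and TNFRSF10B, lie on chromosome 14 and were not called. They measured 9.62 ± 2.82 against 7.76 ± 2.22 FPKM and 7.51 ± 1.097 against 7.36 ± 0.219 FPKM. Reads that such copies share with close relatives could be split between them by the counting, so their levels are uncertain.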
